A study of Mus musculus with 12 samples.

Results

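The genes described here encode integrins, laminins and other proteins of the basement membrane, together with nephronectin (Npnt), a ligand of the integrin that Itga8 helps to form. They were a fixed list of 39 genes, chosen by family and not by a measured value, though earlier results of these data were known. Of these, 34 had a probe set named for them alone, and where a gene had several, the brightest one over the 12 arrays was taken. To be tested, a gene had to exceed log2 5.101 (the median over all values, called the filter level here) on 2 or more arrays, which 30 of the 34 did. The whole series held 17097 genes with a named probe set and 11073 that were tested.

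The cells were lung fibroblasts of mice with a GFP reporter of Pdgfra, the gene for PDGF receptor alpha. Lungs were dispersed with dispase 5 days after surgery, and GFP-bright and GFP-dim cells were sorted, 2000 per sample. The 3 conditions were sham surgery (SHAM), partial pneumonectomy (PNX), after which the remaining lung grows, and pneumonectomy in mice that carry FGF receptor 2 in a dominant-negative form (PNX dnFGFR), with 2 arrays for each condition and gate. All groups carried the reporter, and dnFGFR is named only for the last condition; the promoter that drives it is not given in the sources used here. The labels call replicates biological without saying whether each was 1 animal or a pool, and the gates may share animals, so p-values measure the spread between these samples.

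Integrins are receptors of an alpha and a beta chain that link the matrix outside the cell to the actin cytoskeleton inside it. Laminins, each built of an alpha, a beta and a gamma chain, form the sheet of the basement membrane, which nidogen and the proteoglycans perlecan (Hspg2) and agrin (Agrn) tie to the collagen IV network. Nephronectin, a matrix protein with an RGD motif, binds integrin alpha 8 beta 1, a receptor found on contractile and interstitial mesenchymal cells. In the lung, fibroblasts supply much of this matrix beneath the alveolar epithelium and capillaries.

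Promoter sequences are shown for Itga8, Npnt and Lama2, because these were the members that passed the test between PNX dnFGFR and SHAM in bright cells. Each is the 250 bases before the transcription start, taken from RefSeq (GRCm38.p6, minus strand, written 5′ to 3′); 27 of the 39 members had such a window, and for Npnt, which had 2 windows, the outermost start was used. Capitals mark matches to the motifs searched on both strands. These were the TATA box (TATAAA), the CCAAT box, the GC box (GGGCGG), the AP-1 site (TGANTCA), the TEAD site (GGAATG) and the CArG box, which serum response factor binds.
Itga8, chr2:12301945-12302194: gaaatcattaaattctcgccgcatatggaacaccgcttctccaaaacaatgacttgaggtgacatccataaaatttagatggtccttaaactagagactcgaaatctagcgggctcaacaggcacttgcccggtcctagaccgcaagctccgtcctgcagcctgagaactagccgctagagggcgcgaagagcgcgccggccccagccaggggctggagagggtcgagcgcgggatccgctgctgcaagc
Npnt, chr3:132950292-132950541: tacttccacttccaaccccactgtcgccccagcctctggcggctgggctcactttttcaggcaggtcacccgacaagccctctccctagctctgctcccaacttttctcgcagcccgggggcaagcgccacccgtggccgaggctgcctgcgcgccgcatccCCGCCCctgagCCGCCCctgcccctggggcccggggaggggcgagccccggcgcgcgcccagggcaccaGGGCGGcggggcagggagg
Lama2, chr10:27616943-27617192: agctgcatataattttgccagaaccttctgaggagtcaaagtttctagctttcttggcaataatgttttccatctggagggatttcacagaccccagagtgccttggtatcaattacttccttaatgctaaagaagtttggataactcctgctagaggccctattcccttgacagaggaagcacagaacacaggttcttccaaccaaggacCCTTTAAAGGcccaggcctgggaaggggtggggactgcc
The Itga8 window held no match. The Npnt window shown held 3 GC boxes, a motif present in 32.7% of all 32851 windows, while the other Npnt window held 0. The Lama2 window held 1 CArG box, present in 1.47% of all windows.

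Array quality and cell markers were as follows. Array medians lay between log2 5.06 and 5.13, replicates correlated at 0.953 to 0.976 over the tested genes, and the number of arrays limits the precision (median residual SD 0.199 log2). The Pdgfra transcript measured 4.84 to 5.54 log2 where the label says bright and 6.66 to 7.13 where it says dim, so it runs against the GFP label, and bright and dim below are the labels' names. The fibroblast collagens Col1a1 and Col3a1 were at 11.82 to 12.57 log2 on all arrays, and they carry most of the summed level of 6 fibroblast markers (13.86 to 14.02 in bright and 13.04 to 13.25 in dim arrays). All 6 were called between the gates: Pdgfra lower in bright cells, the other 5 higher, among them Dcn (11.97 to 12.21 in bright, 5.72 to 8.48 in dim arrays), Pdgfrb (8.88 to 9.30 and 5.51 to 6.35) and Col1a2 (6.87 to 7.80 and 5.74 to 6.85). Markers of other cells were present too. The summed levels in bright and dim arrays overlapped for 12 epithelial genes (12.14 to 13.41 and 12.52 to 13.62), 12 endothelial genes (10.81 to 11.20 and 10.98 to 11.48), 12 macrophage and dendritic cell genes (11.35 to 11.96 and 11.25 to 12.72) and 3 neutrophil genes (6.47 to 8.30 and 6.01 to 10.12, highest in dim SHAM at 9.39 and 10.12). Single genes of these lists were called between the gates (mean over the 3 conditions), as were 47.8% of all genes. In bright cells 1 of 11 epithelial genes tested was lower, and of 10 endothelial genes 1 was higher and 4 lower. Of 12 macrophage and dendritic cell genes 1 was higher and 2 lower, and of 3 neutrophil genes 0 were called. The summed levels of 6 pericyte and smooth muscle genes did not overlap (9.07 to 10.46 in bright and 8.41 to 8.89 in dim arrays). Of the 5 tested, 2 were called higher and 1 lower in bright cells. Smooth muscle actin, Acta2, measured 8.14 to 10.11 in bright and 6.53 to 7.55 in dim arrays, while Des measured 5.29 to 6.65 and 6.41 to 7.05. Fewer cells of a type and less RNA per cell cannot be told apart in such samples.

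Between bright and dim cells, taken as the mean over the 3 conditions, the RGD-binding receptor subunit Itga8 and its ligand Npnt were both lower in bright cells, while the laminin chain Lamc3 and the fibronectin receptor subunit Itga5 were higher. Of the 30 members tested, 12 were higher and 7 lower in bright cells at an adjusted p under 0.05 (limma, Benjamini-Hochberg). These counts include Itga1, Itga7 and Itga10, which exceeded the filter level on bright arrays only, and Itga4, which did so on dim arrays only. They entered the test through the gate where they were higher, so their calls are not independent of the filter. The called members were 63.3% of those tested, where 47.8% of all genes were called, 28.5% higher and 19.3% lower. Their median difference was 0.21 log2, beside 0.05 for all genes, and the median size of the difference was 0.54 log2, beside 0.30. In 11 members both bright arrays lay on one side of both dim arrays in each condition, which held for 33.9% of all genes.

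Itga8 measured 8.32 and 8.53 log2 in bright SHAM, 7.81 and 7.82 in bright PNX and 6.62 and 6.07 in bright PNX dnFGFR. In dim cells it measured 10.69 and 10.95, 10.34 and 10.60, and 10.59 and 10.69 in the same order. All bright arrays were below all dim arrays, and the lowest were the bright PNX dnFGFR pair. The difference was -3.12 ± 0.11 log2 (SE, 6 arrays a gate; 8.67-fold lower, limma adjusted p = 1.1e-07). After sham surgery it was -2.40, after pneumonectomy -2.66 and with dnFGFR -4.30 (SE 0.20 each; limma adjusted p = 6.33e-05, 3.67e-05 and 2.55e-06). The summed pericyte and smooth muscle level and Acta2 were higher in the bright arrays, where Itga8 was lower, while Des ran lower there. The part of these markers in this difference was not tested.

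Npnt measured 10.57 and 10.97 log2 in bright SHAM, 10.20 and 10.86 in bright PNX and 9.60 and 9.25 in bright PNX dnFGFR. In dim cells it stayed between 12.08 and 12.22 on all 6 arrays. The gates did not overlap, and, as for Itga8, the lowest arrays were bright PNX dnFGFR. Npnt was 3.77-fold lower in bright cells (-1.92 ± 0.13 log2, limma adjusted p = 3.84e-06). By condition the difference was -1.43, -1.65 and -2.67 log2 in SHAM, PNX and PNX dnFGFR (SE 0.23 each; limma adjusted p = 0.00233, 0.00105 and 5.2e-05). Over the 6 bright arrays the levels of Itga8 and Npnt had a Pearson r of 0.94 (Spearman rho 0.94), and over the 6 dim arrays 0.12 (rho 0.09); the bright arrays share the group means just given, and these values are descriptions.

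**Figure D1:**
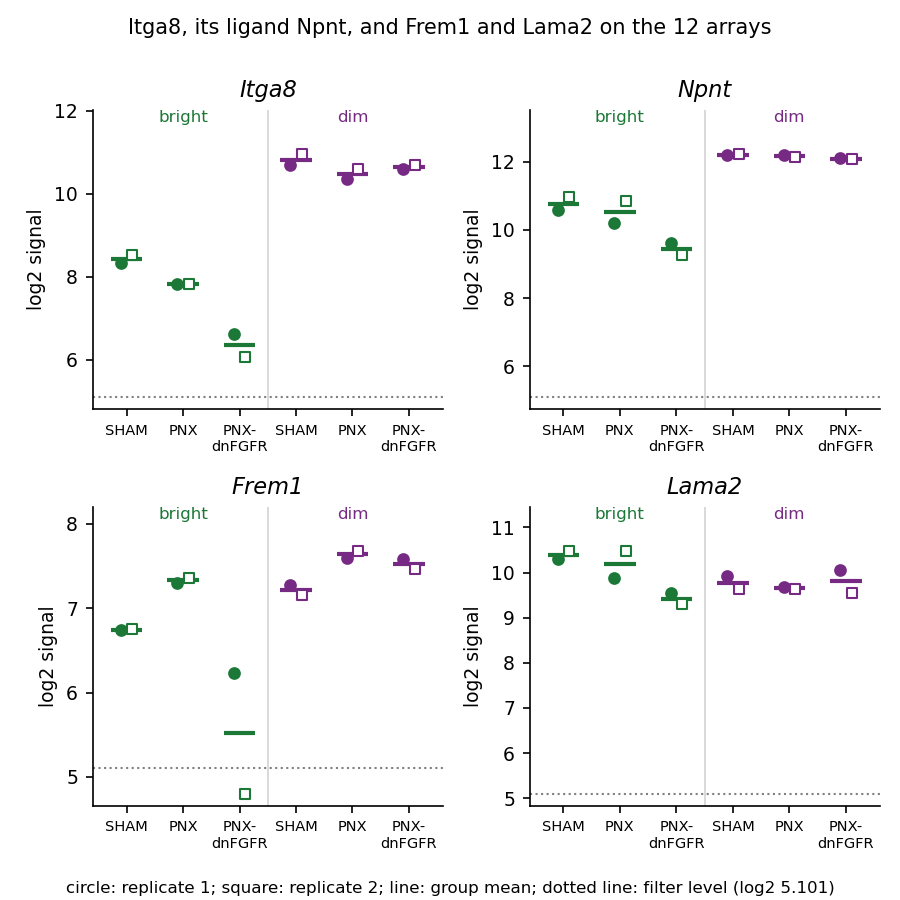
Log2 signal of Itga8, Npnt, Frem1 and Lama2 on each of the 12 arrays, by gate and condition, with the mean of each group of 2 as a line and the filter level dotted. Itga8 and Npnt were below all dim arrays in every bright array, and the bright PNX dnFGFR arrays were the lowest.

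The other probe sets of the pair gave the same order of groups in bright cells. The second Itga8 probe set differed by -3.27 log2 between the gates, and the 4 other Npnt probe sets by -2.19 to -3.22. The Npnt probe set used here, the brightest, thus gave the smallest difference of its 5. Npnt at 12 log2 lies near the top of the scale, whose highest value was 13.05.

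**Figure D2:**
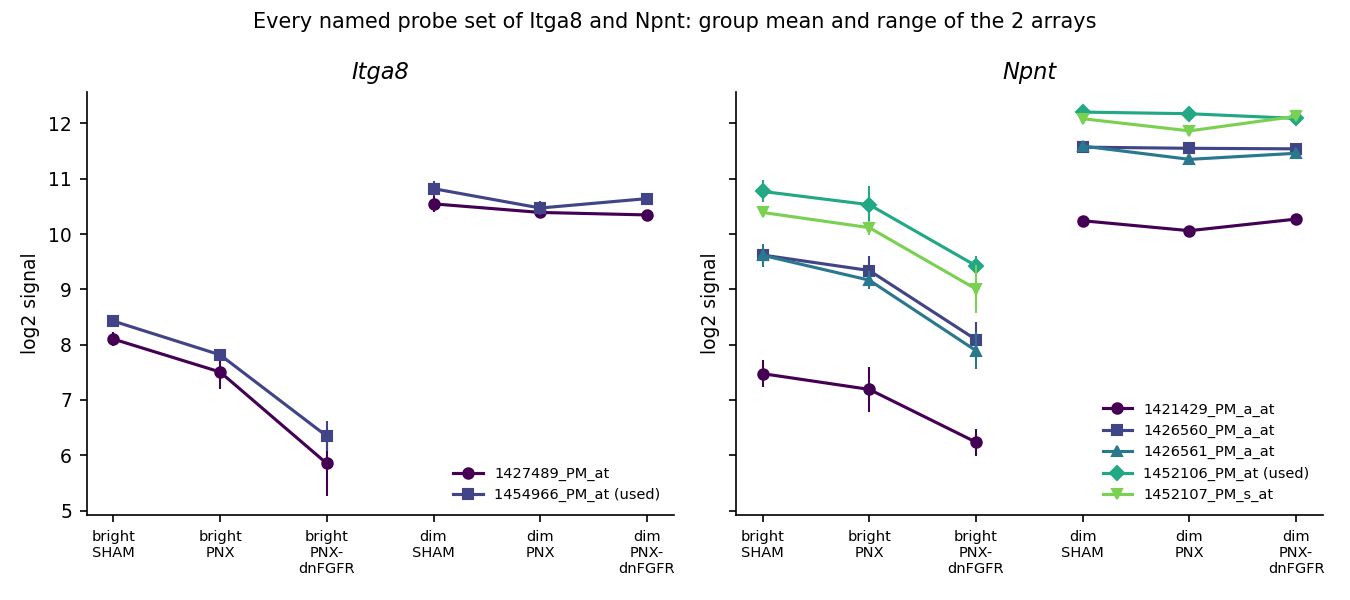
Log2 signal of every named probe set of Itga8 (2) and Npnt (5), as the mean of the 2 arrays of each group with their range as a vertical line. In bright cells each probe set was lowest in PNX dnFGFR, while in dim cells the 3 conditions lay close together.

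Among the other RGD-binding subunits, Itga5, Itgav and Itgb3 were higher in bright cells and Itgb5 was not called. Itga5, which pairs with beta 1 to bind fibronectin, measured 6.80 and 6.33 log2 in bright SHAM, 7.37 and 7.42 in bright PNX and 6.70 and 6.55 in bright PNX dnFGFR. The dim arrays gave 4.62 and 5.10, 6.34 and 5.05, and 5.43 and 4.91, with 1 dim PNX array apart from the rest and 4 dim arrays at or near the filter level. The difference was 1.62 ± 0.22 log2 (3.07-fold, limma adjusted p = 0.000261), and it passed in each condition (1.70, 1.70 and 1.45 log2). In PNX it was 1.05 without the second dim array, the low one (adjusted p = 0.0632), and the call was also lost without the first bright array (0.0557) or with only the groups compared (0.0677). The SHAM and PNX dnFGFR calls were lost without any 1 of 2 and of 3 arrays (adjusted p up to 0.0825 and 0.0997).

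Itgav, the alpha chain shared by the vitronectin receptors and by integrins that activate latent TGF-beta, was higher in bright cells by 0.78 ± 0.13 log2 (limma adjusted p = 0.00109). Its partner Itgb3 was higher by 0.86 ± 0.24 (adjusted p = 0.0143). In SHAM both differences were smaller, 0.17 and 0.34 log2, and did not pass. The value for Itgav rests on the probe set used: 3 others that exceeded the filter level on 4 or 12 arrays gave 0.35, 0.47 and 0.76 in SHAM, and the second Itgb3 probe set gave 0.15. In PNX dnFGFR both passed, at 1.22 and 1.35 log2; the bright Itgav arrays there were 8.29 and 8.28 and the dim ones 6.71 and 7.42. That of Itgb3 was 0.83 without the first dim array (adjusted p = 0.19) and was also lost without either bright array (0.0637 and 0.155). The gate difference was compared between PNX and SHAM and between PNX dnFGFR and PNX, as differences of effects given further on, and none passed. It was not tested between PNX dnFGFR and SHAM. Itgb5 differed by -0.01 log2 (95% interval -0.24 to 0.21).

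Lamc3 was the laminin chain with the largest difference in the probe sets used. This gamma chain of the less common laminins measured 7.52 to 8.48 log2 over the bright arrays, with the highest pair in PNX (8.03 and 8.48). The dim arrays measured 4.76 to 5.54, close to the filter level on both sides. Lamc3 was higher in bright cells by 2.70 ± 0.10 log2 (6.48-fold, limma adjusted p = 1.05e-07), by 2.45, 2.80 and 2.84 in SHAM, PNX and PNX dnFGFR, and its second probe set gave 1.82. With dim levels this low, the fold is limited by the background.

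**Figure D3:**
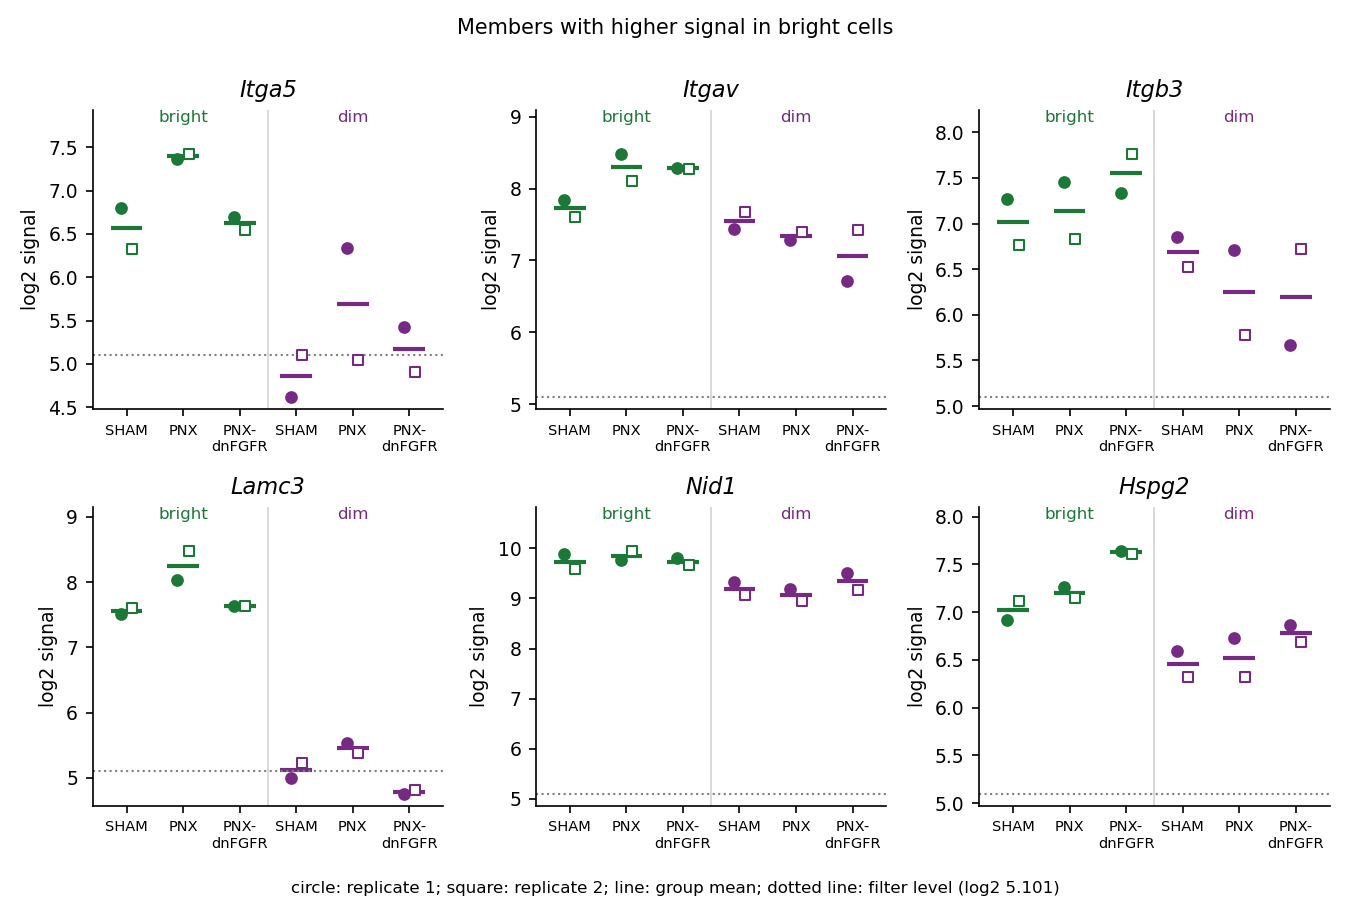
Log2 signal on each array of 6 members with higher levels in bright cells: the receptor subunits Itga5, Itgav and Itgb3, the laminin chain Lamc3, nidogen-1 (Nid1) and perlecan (Hspg2). Lines are means of 2 arrays, and the dim arrays of Lamc3 (4.76 to 5.54) lie around the dotted filter level.

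The chains of the common laminins differed little by comparison. Lamb2 was higher in bright cells by 0.38 ± 0.09 log2 (limma adjusted p = 0.00559). Lamc1, the gamma chain of most laminins, differed by 0.01 log2 with a 95% interval of -0.17 to 0.18, and it measured 10.71 to 11.14 over the 12 arrays. Lamb1, Lamb3, Lama2 and Lama3 were not called, at -0.26, 0.02, 0.25 and -0.04 log2. For Lama2 and Lama3 the direction changed between conditions. Lama2 means in SHAM, PNX and PNX dnFGFR were 10.39, 10.18 and 9.42 in bright and 9.77, 9.67 and 9.8 in dim cells. Lama3 differed by 0.85, -0.26 and -0.71 log2 in the same order, and neither gene was called in any condition. One of the 3 other Lamb1 probe sets gave -1.27 where the remaining ones gave -0.07 and -0.23, so the probe sets of this gene disagree. Lama1, an alpha chain of early embryonic basement membranes, stayed below the filter level on all arrays.

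Nidogen and perlecan, the connectors of the laminin and collagen IV networks, were both higher in bright cells. Nid1 was higher by 0.57 ± 0.10 log2 (limma adjusted p = 0.00164; second probe set 0.68) and Hspg2 by 0.70 ± 0.10 (adjusted p = 0.000407; second probe set 0.55). Hspg2 measured 6.92 to 7.64 in bright and 6.32 to 6.87 in dim arrays, with the highest bright pair in PNX dnFGFR (7.64 and 7.61). Agrn was not called (0.16 log2, 95% interval -0.08 to 0.41); its second probe set gave 0.33, with 8.84 to 9.24 in bright and 8.48 to 8.83 in dim arrays.

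Of the Fraser complex, which anchors epithelia to the matrix below, Frem1 was lower in bright cells, with a difference of -0.93 ± 0.20 log2 (limma adjusted p = 0.00445). The bright arrays measured 6.74 and 6.75 in SHAM, 7.30 and 7.36 in PNX, and 6.23 and 4.80 in PNX dnFGFR; the dim arrays measured 7.16 to 7.68. By condition the differences were -0.48, -0.31 and -2.01 log2, and only that in PNX dnFGFR passed (limma adjusted p = 0.00224), where the second bright array lay below the filter level. Frem2 was below the filter level on every array. Fras1 was not called (0.47 ± 0.53 log2).

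Fras1 and the collagen-binding subunit Itga10 varied strongly between replicates. Itga10 measured 5.19 and 4.67 log2 in bright SHAM, 6.52 and 4.03 in bright PNX and 6.58 and 6.89 in bright PNX dnFGFR, against 4.0 to 4.88 in dim arrays. Fras1 measured 5.85 and 5.05, 7.01 and 3.75, and 7.02 and 7.22 in the same bright arrays. Both were thus high on the first bright PNX array and the PNX dnFGFR pair and low on the second bright PNX array. On those bright arrays the mesothelial gene Wt1 measured 3.29 and 2.72, 5.55 and 2.72, and 4.64 and 6.13. Upk3b, also a mesothelial marker, measured 7.39 and 4.46, 8.83 and 5.1, and 7.42 and 7.88. On the first bright SHAM and first bright PNX dnFGFR arrays Itga10 measured 5.19 and 6.58. The markers on these arrays were at 7.39 and 7.42 for Upk3b, 3.29 and 4.64 for Wt1, and 3.78 and 4.13 for Msln. The summed level of the 7 mesothelial markers was 10.49 to 11.80 in bright and 8.47 to 11.03 in dim arrays. It was 11.80 and 10.49 in bright PNX and 11.03 and 10.98 in dim SHAM. In dim SHAM Wt1 measured 2.36 and 2.86, Upk3b 4.49 and 4.51, and Itga10 4.0 and 4.71. The highest value of the 7 was that of Nkain4 in bright arrays (10.02 to 11.13 there). In dim arrays it was that of Upk1b (3.77 to 10.67 there). The part of these markers in these results was not tested. Itga10 passed as the mean over conditions (1.08 ± 0.37 log2, limma adjusted p = 0.0359), but not when any 1 of 8 arrays was left out (adjusted p up to 0.0874).

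Of the remaining subunits, Itga9 and Itgb1 were lower in bright cells, as were Itga4 and Itgb7. Itga9, which binds tenascin-C and related ligands, differed by -0.70 ± 0.11 log2 (limma adjusted p = 0.000739; 3 probe sets, -0.67 to -0.84), with 8.64 to 9.18 in bright and 9.53 to 9.79 in dim arrays. Itgb1, the beta chain of most matrix-binding integrins, differed by -0.37 ± 0.10 (adjusted p = 0.0115), at 10.01 to 10.54 against 10.56 to 10.82. Itga4 and Itgb7 differed by -0.44 and -0.46 log2 (limma adjusted p = 0.00471 and 0.0379). Itgb7 means in SHAM, PNX and PNX dnFGFR were 7.74, 7.33 and 6.77 in bright and 7.76, 7.67 and 7.78 in dim cells. The gates were thus nearly equal for Itgb7 after sham surgery. Lymphocytes use the Itga4 and Itgb7 chains. The summed level of 6 lymphocyte markers was 7.31 to 7.82 in bright and 8.02 to 8.48 in dim arrays, and its part in these differences was not tested.

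Itga1 (collagen receptor), Itga7 (laminin receptor) and Itgb4 (the hemidesmosome chain) were higher in bright cells by 0.65, 0.42 and 0.68 log2 (limma adjusted p = 0.0278, 0.0199 and 0.0379). Of the 12 arrays, Itga1 exceeded the filter level on 3 and Itga7 on 2. With every value below that level set to it, the differences of Itga1, Itga7 and Itga4 were 0.14, 0.04 and -0.16 log2 and none passed. The platelet chain Itga2b was higher by 0.39 ± 0.11 (adjusted p = 0.0141), beside a summed platelet marker level of 7.22 to 7.73 in bright and 7.02 to 7.40 in dim arrays. That list includes Itga2b itself, and its part was not tested. Itga2 (0.61 log2), Itga3 (-0.50) and the leukocyte chain Itgb2 (-0.72) did not pass, with adjusted p of 0.0502, 0.0902 and 0.063 in limma. Itga6 and Itgb6 were below the filter level on all arrays, and Itga11, Itgb8, Lama4, Lama5 and Nid2 had no probe set named for them alone and were not analysed here.

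By condition, 5 members passed between the gates after sham surgery, 8 in PNX and 14 in PNX dnFGFR, against 19%, 18.4% and 34.4% of all genes. Itga8, Npnt, Lamc3 and Itga5 passed in all 3 conditions, and Itga9 was the fifth in SHAM. In PNX, Itgav, Lamb2, Nid1 and Hspg2 joined the 4. In PNX dnFGFR the others were Itga10, Itgav, Itgb3, Itga2b and Hspg2, higher in bright cells, and Itga4, Itga9, Itgb7, Lamb1 and Frem1, lower. The counts move with single arrays: without the first bright or the first dim SHAM array 3 passed in SHAM, without the second dim PNX array 3 passed in PNX, and without any 1 of the PNX dnFGFR arrays 8 or 9 passed there. The calls of Itga8, Npnt and Lamc3 in each condition, and of Itgav, Hspg2 and Frem1 in PNX dnFGFR, held without any 1 array, and each of the other calls by condition ended without at least 1. Among these, in PNX dnFGFR, Itga4 was at -0.41 log2 without the first dim array and Lamb1 at -0.31 without the second bright array; Frem1, though still called, was at -1.30 without the second bright array. A larger count in a condition is no test of a difference between conditions.

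**Figure D4:**
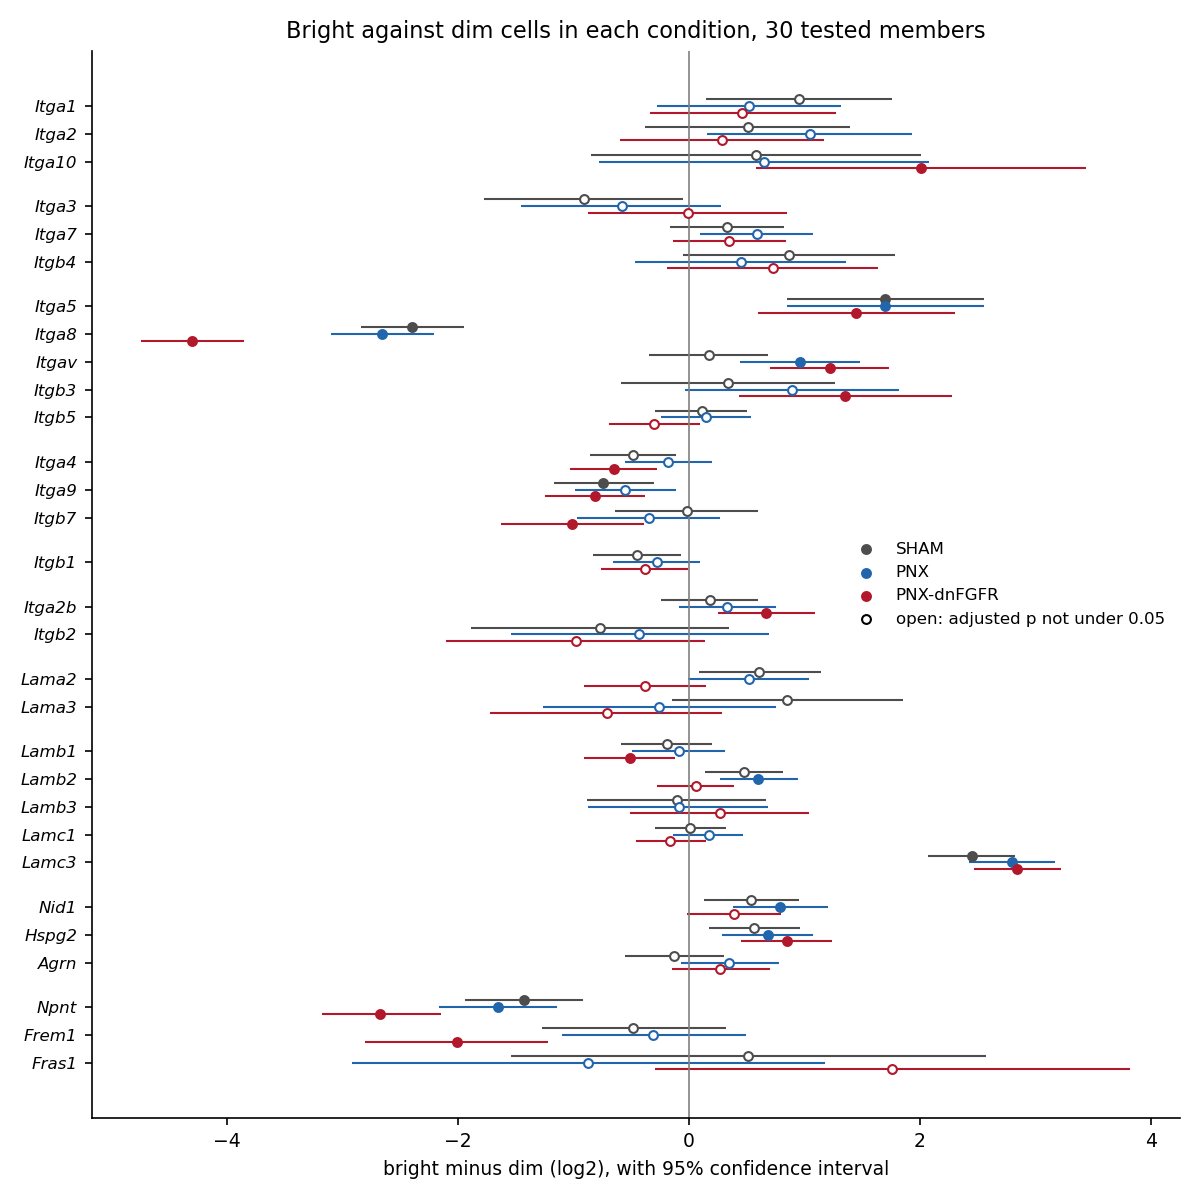
Bright minus dim difference (log2) of the 30 tested members in SHAM, PNX and PNX dnFGFR, with 95% confidence intervals from limma. Filled points passed an adjusted p of 0.05: Itga8 and Npnt lie to the left and Lamc3 and Itga5 to the right in all 3 conditions.

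Between PNX and SHAM no member passed in limma in bright cells, in dim cells or in their mean, where 0.00903%, 0.0452% and 0.144% of all genes did. At an unadjusted p under 0.05 there were 3, 1 and 4 members, and 8.24%, 12.2% and 16.1% of all genes. Lamc3 had the smallest p in bright cells, at 0.69 ± 0.17 log2 (limma adjusted p = 0.328). In bright cells Itga5 differed by 0.83 ± 0.38 log2, Itgav by 0.57 ± 0.23 and Itga8 by -0.61 ± 0.20 (limma adjusted p = 0.612, 0.562 and 0.518). In dim cells Itga4 had the smallest p (-0.60 ± 0.17, limma adjusted p = 0.22). Npnt differed by -0.24 log2 (95% interval -0.76 to 0.27) in bright and by -0.03 (-0.54 to 0.49) in dim cells.

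Between PNX dnFGFR and PNX no member passed in either gate or in their mean, where 0.00903% of all genes did in bright cells and 0% in dim cells and in the mean. At an unadjusted p under 0.05 there were 7 members in bright cells, 2 in dim cells and 7 in the mean, beside 12.6%, 7.79% and 12.5% of all genes. In bright cells Itga8 differed by -1.47 ± 0.20 log2 (limma adjusted p = 0.0651), Frem1 by -1.82 ± 0.35 (0.0934), Npnt by -1.10 ± 0.23 (0.11) and Lamc3 by -0.63 ± 0.17 (0.159). For each of the 4 both PNX dnFGFR arrays were below both PNX arrays, while 43.7% of all genes had no overlap between these groups in one direction or the other. In dim cells the same members differed by 0.17, -0.11, -0.08 and -0.68 log2. Without the first bright PNX array 5 members passed in bright cells, Itga8 at -1.48 and Npnt at -1.43 log2 (limma adjusted p = 0.0251 and 0.0167) among them. Without the first bright PNX dnFGFR array 2 passed, Itga8 at -1.75 and Frem1 at -2.53 log2 (adjusted p = 0.0478 and 0.00201).

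Between PNX dnFGFR and SHAM the groups differ in both surgery and receptor. Itga8, Npnt and Lama2 were called lower in bright PNX dnFGFR cells, and no member was called higher. These were 3 of the 30 members, 10%, where 5.2% of all genes were called and 2.6% were called lower. Both PNX dnFGFR arrays were above both SHAM arrays in 7 members and below them in 12. Means in bright SHAM and bright PNX dnFGFR were 4.93 and 6.73 for Itga10 and 5.45 and 7.12 for Fras1, neither called. Itga8 fell by 2.08 ± 0.20 on the log2 scale (4.23-fold, limma adjusted p = 0.00435) and Npnt by 1.34 ± 0.23, a log2 difference of -1.34 (2.54-fold, adjusted p = 0.0182). Lama2, the alpha chain of merosin laminins of muscle and mesenchyme, measured 10.30 and 10.47 log2 in bright SHAM, 9.89 and 10.48 in bright PNX, and 9.54 and 9.30 in bright PNX dnFGFR. It differed by -0.96 ± 0.23 (1.95-fold, limma adjusted p = 0.0485); dim arrays measured 9.55 to 10.06. For all 3 genes both PNX dnFGFR arrays were below both SHAM arrays; the groups did not overlap in 59.6% of all genes. Summed markers of other cells also differed between these arrays. The summed endothelial level was 11.18 to 11.20 in bright SHAM and 10.81 to 10.99 in bright PNX dnFGFR, and 8 of the 10 endothelial genes tested had both PNX dnFGFR arrays below both SHAM arrays (median difference -0.70 log2, none called). The summed macrophage and dendritic cell level was 11.80 to 11.96 and 11.35 to 11.52, with 7 of 12 genes lower without overlap, 3 higher without overlap, and 1 called, Cd14, which was higher (2.15 ± 0.49 log2, limma adjusted p = 0.0416). The part of these cells in the falls was not tested.

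These calls rest on few arrays. Without the second bright SHAM array no member passed, and the adjusted p in limma was 0.0505 for Itga8, 0.145 for Npnt and 0.248 for Lama2. Without the second bright PNX dnFGFR array Itga8 alone passed, with Npnt at 0.103 and Lama2 at 0.232. Lama2 also lost its call without the first array of bright SHAM (0.113) or bright PNX dnFGFR (0.139), either dim SHAM array (0.0599) or either dim PNX array (0.074), in the fit without a filter (0.0571), after requantiling (0.0504) and with the replicate number as a block (0.0597). Frem1 (-1.23 ± 0.35 log2, adjusted p = 0.0738), Itgb7 (-0.97 ± 0.28, 0.0724) and Hspg2 (0.61 ± 0.17, 0.0747) did not pass. In dim cells no member passed and none had an unadjusted p under 0.05, where 0.0181% of all genes were called and 9.52% had such a p. Itga8 differed there by -0.18 log2 (95% interval -0.63 to 0.26) and Npnt by -0.11 (-0.62 to 0.40).

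**Figure D5:**
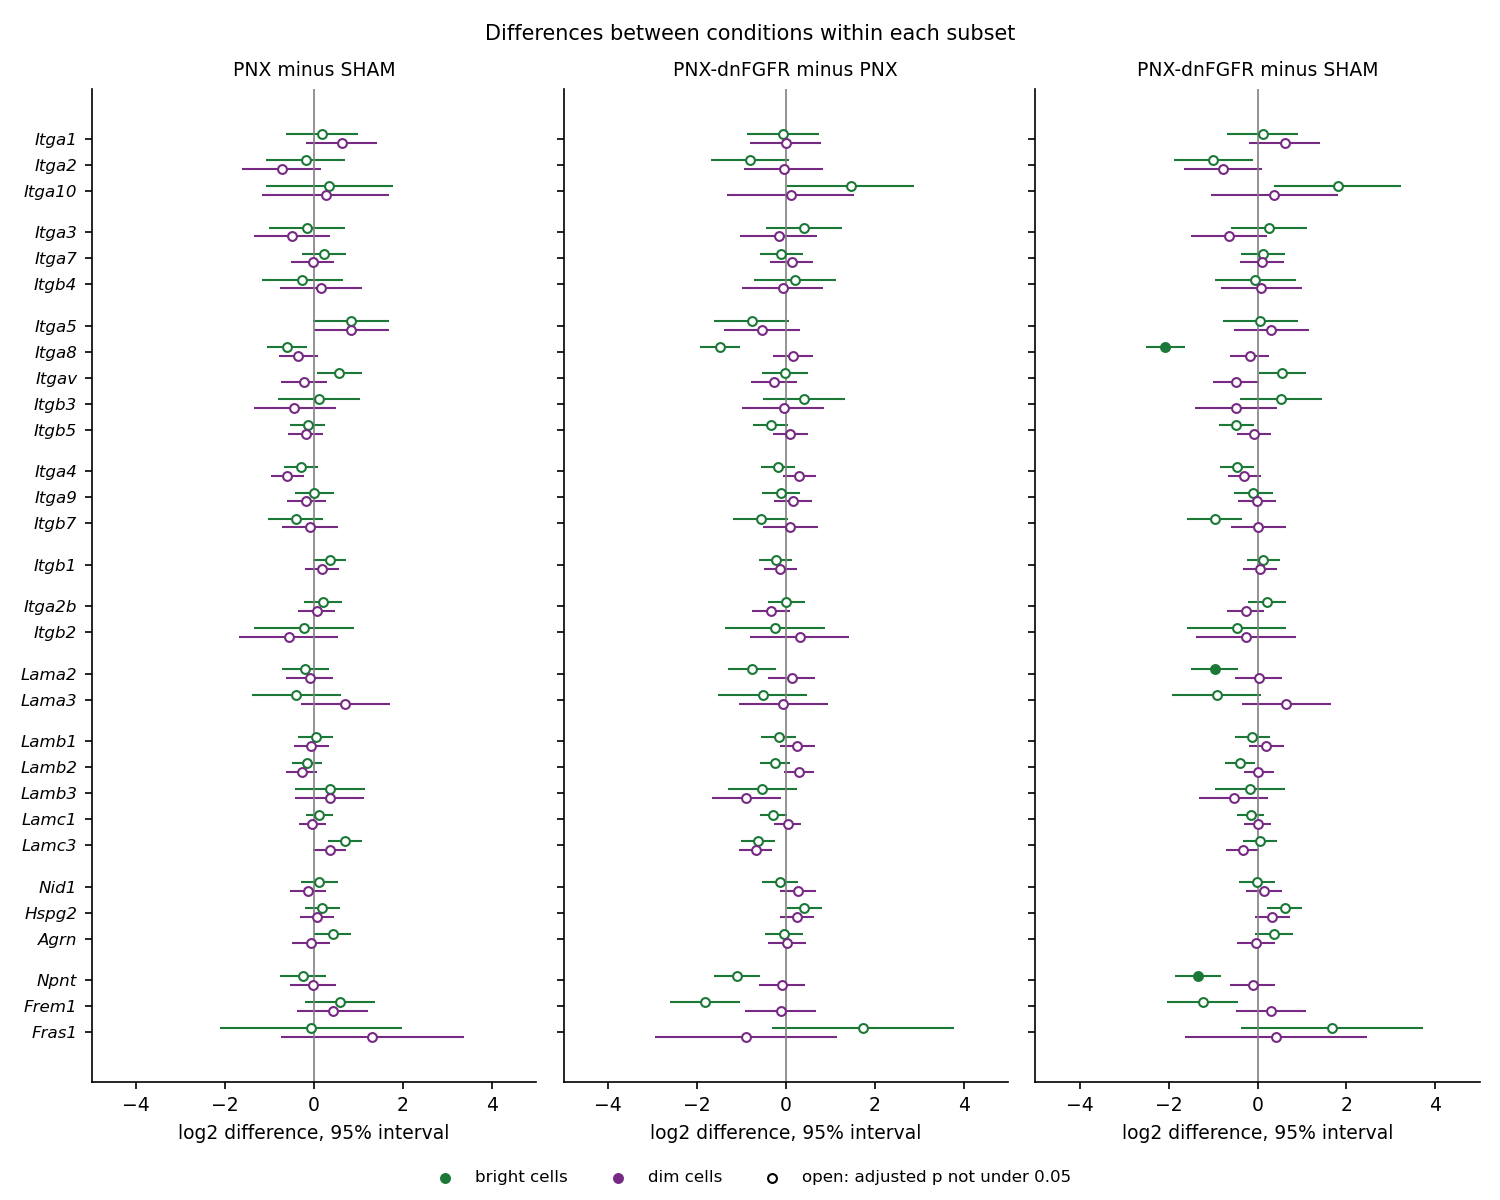
Log2 differences between conditions of the 30 tested members, in bright and dim cells, with 95% confidence intervals from limma. The 3 filled points, Itga8, Lama2 and Npnt in bright cells between PNX dnFGFR and SHAM, are the ones that passed an adjusted p of 0.05.

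Whether the change between conditions differed between the gates was tested directly. No member passed for PNX against SHAM or for PNX dnFGFR against PNX, nor did any gene (0% in both). At an unadjusted p under 0.05 there were 1 and 5 members, and 4.47% and 8.21% of all genes. For PNX dnFGFR against PNX the bright change minus the dim change was -1.64 ± 0.28 log2 for Itga8 (limma adjusted p = 0.392), -1.71 ± 0.50 for Frem1 (adjusted p = 0.484), -1.02 ± 0.32 for Npnt (0.487) and -0.90 ± 0.33 for Lama2 (0.542). A larger change of Itga8 in bright than in dim cells was therefore not shown at the threshold. For PNX against SHAM the corresponding value for Itgav was 0.79 ± 0.33 log2 (limma adjusted p = 0.998), and 0.35 as the mean of its probe sets.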

How the data were processed

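The deposited values are log2 signals of Affymetrix mouse arrays, which the authors made with RMA per the submitters' processing notes, with no version or options stated in the sources used here. Per the labels' protocols, samples of 2000 cells went through 25 cycles of cDNA amplification. Amplification and quantile normalization within RMA can compress differences. The arrays hold 45141 probe sets, of which 104 are controls. The annotation names a single gene for 28898, several for 551 and none for 15588; results use the first kind.

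limma 3.58.1 in R 4.3.3 fitted 1 mean per group to all 12 arrays, with 6 residual and 3.31 prior degrees of freedom. Each of the 14 contrasts had its p-values adjusted (Benjamini-Hochberg) across 11073 tested genes, with a threshold of 0.05. All adjusted p-values are limma's. Arrays do not overlap, for a mean over conditions or gates, where they do so within each. The fit was tested on simulated data.

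The members and lists were chosen with earlier results of these data known. Named are the members past the threshold, otherwise up to 4 with the smallest p in a comparison, Itga8 and Npnt throughout, and up to 4 per related list with the largest difference among those past the threshold; further members are given as values to account for the whole list. Same-numbered bright and dim arrays deviated together with r of 0.01, 0 and 0.13 in the 3 conditions, so the numbers were not taken as pairs. Alternatives tried were no filter or a stricter one (log2 6.762), a repeated quantile normalization, averaging a gene's probe sets, holding low values at the filter, other variance models, fits to only the groups compared, replicate blocks (by number, or by condition and number), and omission of each array.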

Additional observations from a re-analysis of the deposited data

How the results depend on the processing

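Between bright and dim cells as the mean over conditions, 13 of the 19 calls held in every setting in which the gene was tested, and 14 to 21 members passed when 1 array was left out (14 without the first dim PNX dnFGFR array). The calls of Itga1, Itga7, Itga10, Itgb4 and Itgb7 each ended without any 1 of 4 to 8 arrays, and those of Itga1, Itga7 and Itga4 with low values held at the filter. With condition and replicate number together as a replicate block, Itga1 and Itgb4 had an adjusted p of 0.0621 and 0.0512 (limma). By condition, 5 in SHAM became 8 with the stricter filter, 9 with an intensity trend in the variance and 8 with the replicate number as a block, and 3 to 7 without 1 array. The 8 in PNX became 4 with only the groups compared and 3 to 8 without 1 array, and the 14 in PNX dnFGFR became 8 to 15.

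Between PNX dnFGFR and PNX in bright cells the count of 0 became 1 with the stricter filter, 1 with the trend and 2 with low values held; Itga8 passed in all of these (adjusted p = 0.0405, 0.0286 and 0.0204 in limma) and Frem1 in the last (0.0428). Without 1 array it was 0 to 5, as the mean over gates 0 to 3 (3 without the first bright PNX array, 1 without the first bright PNX dnFGFR array), and for the difference of effects 0 to 1 (Frem1, without the first bright PNX dnFGFR array). Between PNX dnFGFR and SHAM in bright cells 3 became 6 with only the groups compared and 0 to 4 without 1 array. All other counts were 0 in every setting run. Npnt, near 0 between PNX and SHAM, ranged without 1 array from -0.58 to 0.09 log2 in bright cells, -0.30 to 0.03 in the mean and -0.55 to 0.12 for the difference of effects, turning positive without the first bright PNX array, and in dim cells it was 0.04 after requantiling; between PNX dnFGFR and PNX in dim cells it was 0.10 as the mean of its probe sets. The cause of these changes was not tested. Signal over background limits the dim levels of Lamc3 and Itga5 and all levels of Itga1, Itga4 and Itga7.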

Other observations

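Of the genes tested between the gates, 28.5% had a call towards bright and 19.3% towards dim cells (limma, Benjamini-Hochberg adjusted p under 0.05), and the counts of related genes stand beside these shares, with no test of a direction for any list. Of 21 other basement membrane genes tested, 13 were higher and 3 lower in bright cells (76.2% called; median difference 1.04 log2, beside 0.05 for all genes), the largest being Col15a1 (4.42 ± 0.22 log2), Smoc2 (4.31 ± 0.15), the collagen IV chain Col4a6 (2.76 ± 0.14) and netrin-1, Ntn1 (2.51 ± 0.18). Col15a1 measured 9.79 to 10.66 log2 over the bright arrays and 5.13 to 6.43 over the dim ones, without overlap. The common collagen IV chains Col4a1 and Col4a2 were not called, at 0.08 and -0.05 log2, as Lamc1 was not among the laminins.

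Of 14 integrin ligands tested, 3 were higher in bright cells (Postn 2.85, Tgfbi 2.58 and Tgfb3 2.43 log2) and 8 lower, with tenascin-C, Tnc, at -1.60 ± 0.23 (median of the list -0.28). Of 25 adaptors of focal adhesions, 7 were higher, Kank1 by 4.84 ± 0.15 log2, and 11 lower, among them Tns1 (-1.55 ± 0.08), vinculin, Vcl (-1.28 ± 0.13), and Lims1 (-1.18 ± 0.07), with a median of -0.13. Non-integrin matrix receptors gave 6 higher and 2 lower of 12, with Gpc1 at -1.34 and Sdc3 at 1.0 log2, and of 3 leukocyte alpha subunits Itgal was lower (-0.75).

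Between PNX dnFGFR and SHAM in bright cells, where 5.2% of all genes were called, 1 of the 21 basement membrane genes (Egflam, -1.32 ± 0.23 log2), 2 of the ligands (Postn, 1.58 ± 0.24, and Svep1, -0.83 ± 0.18), 2 of the adaptors (Tns1, -1.32 ± 0.13, and Tns3, -0.84 ± 0.13), Plxdc2 (-0.81) and Itgal (-0.94) passed, all but Postn lower in PNX dnFGFR. These were 4.76% of the basement membrane genes, 14.3% of the ligands and 8% of the adaptors, shares of 1 or 2 genes a list that are read no further. Postn, which encodes a ligand of alpha v integrins, measured 6.12 and 6.16 log2 in bright SHAM, 7.88 and 8.26 in bright PNX and 8.06 and 7.39 in bright PNX dnFGFR, so the low pair was SHAM. Egflam measured 9.49 and 9.44, 8.92 and 9.57, and 8.27 and 8.03 in the same arrays, and Tns1 10.68 and 10.79, 10.29 and 10.36, and 9.45 and 9.38, with the low pair in PNX dnFGFR for both.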
